A study of Homo sapiens with 12 samples.

Results

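SP8, EMX1, EMX2, DMRT3, OTX1, GBX2, NR2F1, HESX1 and FEZF2 are 9 genes for transcription factors of anterior and cortical forebrain patterning. They were taken by name, through the gene symbol of each array probe, out of 30505 genes on the array, and 13 probes stood for them. All 9 were among the 15650 genes that passed the filter for detected signal. SP8 had 3 probes, EMX1 and EMX2 had 2 each, and 1 probe of the 13 failed that filter.

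The cells were H9, an established human embryonic stem cell line, and total RNA was hybridised to Illumina bead arrays, 1 array per culture. Dox-plus LHX2 cells had received doxycycline for 3 days to switch on an LHX2 transgene and were collected at day 4 and day 16, which is 1 and 13 days after the drug. Dox-minus LHX2 cells of the same days were set against them. shLHX2 cells carried a short hairpin RNA against LHX2, shLuc cells carried the control hairpin, and both had gone through neural induction for 12 days. The 6 groups had 2 biological replicates each, which makes 12 arrays. The series description names GFP as a control, but every doxycycline array is labelled as LHX2 cells, so effects of doxycycline and of the transgene cannot be told apart here. No source used here gave the promoter of the transgene or the number of clones.

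The embryonic forebrain is laid out by signals from its edges. The rostral margin of the neural plate secretes FGF8, the dorsal midline secretes BMP and WNT proteins, and transcription factors that read these signals divide the tissue into rostral and caudal, dorsal and ventral fields. In the mouse cortex SP8 favours rostral area identity, while EMX2 and NR2F1 (COUP-TFI) favour caudal identity. EMX1 marks the dorsal telencephalon, DMRT3 its medial part, and LHX2 itself specifies cortical tissue against the cortical hem.

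Promoter windows are shown for 3 of the genes. SP8 was taken as the gene with the largest doxycycline difference of the 9. EMX2 and HESX1 are the only genes with a match to the letters searched among the 7 members that have a window. For HESX1, which has more than 1 window, the one with matches is shown. Each window runs from 250 bases before to 50 bases after an annotated start, is written 5′ to 3′ along the gene, and comes from RefSeq on GRCh38.p14. Capitals mark matches to TAATTA or TAATTG, cores bound by homeodomain proteins, or to GGATTA, a core bound by OTX proteins, on either strand (CAATTA is TAATTG read on the other strand).
SP8 (chr7:20786837-20787136, minus strand): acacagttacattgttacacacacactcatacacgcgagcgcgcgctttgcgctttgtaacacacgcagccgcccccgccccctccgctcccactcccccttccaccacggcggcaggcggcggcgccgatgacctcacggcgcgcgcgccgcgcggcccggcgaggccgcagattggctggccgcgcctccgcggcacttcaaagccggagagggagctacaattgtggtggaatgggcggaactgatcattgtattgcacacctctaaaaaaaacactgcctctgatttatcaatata
EMX2 (chr10:117542496-117542795, plus strand): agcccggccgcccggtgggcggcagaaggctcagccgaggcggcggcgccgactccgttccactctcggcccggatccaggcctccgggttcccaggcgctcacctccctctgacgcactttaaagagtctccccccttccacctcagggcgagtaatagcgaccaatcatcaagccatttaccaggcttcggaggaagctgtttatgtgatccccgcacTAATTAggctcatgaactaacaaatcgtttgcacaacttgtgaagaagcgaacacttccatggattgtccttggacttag
HESX1 (chr3:57199929-57200228, minus strand): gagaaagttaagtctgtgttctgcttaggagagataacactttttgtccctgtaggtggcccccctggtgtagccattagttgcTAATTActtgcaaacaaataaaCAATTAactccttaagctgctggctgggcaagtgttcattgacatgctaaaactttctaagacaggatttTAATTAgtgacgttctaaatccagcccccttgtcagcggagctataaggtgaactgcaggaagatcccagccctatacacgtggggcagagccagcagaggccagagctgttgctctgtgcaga

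The EMX2 match lay at base -30 from the start. The HESX1 window shown held TAATTA at -166 and -74 and CAATTA at -144. The other HESX1 window, at another annotated start and with 78.7% GC, held no match. The SP8 window held no match to any of the 3 letter strings. Of 9 windows for 7 of the members, 2 held a match, against 16.5% of 35116 RefSeq promoters of the same length, of which 4.84% held TAATTA, 7.38% TAATTG and 6.36% GGATTA. The 9 windows ranged from 31.3% to 78.7% in GC content, around a median of 58.7% over all promoters. The SP8 window had 61.7% GC and an observed over expected CpG ratio of 1.19, where the median promoter had 0.579. EMX1 and FEZF2 were matched to no window.

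Array medians ran from 73.1 to 89.2 intensity units, and 19050 to 20489 probes per array were detected at a detection p under 0.01. Replicates correlated at 0.976 to 0.994 over normalized log2 signals, lowest for the dox-minus cultures of day 16. LHX2 read 7.35 and 8.09 on the 2 shLHX2 arrays, against 9.77 and 9.73 on the shLuc arrays, on the normalized log2 scale. It was lower in shLHX2 cells by limma (log2 fold change -2.03 ± 0.27 SE, adjusted p = 0.00592), but the call was lost without shLHX2 replicate 1 (adjusted p = 0.071), without shLuc replicate 1 (adjusted p = 0.106) or without shLuc replicate 2 (adjusted p = 0.104). The shLuc numbers follow the array files; the series value table holds the 2 shLuc arrays under each other's names. In the doxycycline series LHX2 read 6.05 and 5.45 in dox-plus cells of day 4, against 5.23 and 4.87 in dox-minus cells. At day 16 it read 12.79 and 13.04 in dox-plus cells, against 12.19 and 11.92 in dox-minus cells (log2 fold change 0.86 ± 0.27 SE, limma adjusted p = 0.0581). That difference was called in 8 of 28 alternatives, with adjusted p between 0.014 and 0.211 over all of them. The single LHX2 probe starts at base 2100 of its transcript and need not be in the transgene, so it does not check the doxycycline labels.

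A set of 9 genes picked from earlier results of these arrays differed between dox-plus and dox-minus cultures in opposite directions on the 2 days, called by limma for all 9 on both days. TRIM4 read 4.52 and 4.60 in dox-plus cells and 7.44 and 7.02 in dox-minus cells at day 4. At day 16 it read 8.33 and 8.09 in dox-plus cells and 4.57 and 4.63 in dox-minus cells. ZNF558 and H19 had the same order, and these 3 of the 9 were detected on no array of the dox-plus cultures of day 4 or the dox-minus cultures of day 16. In these genes the dox-plus cultures of day 4 therefore resembled the dox-minus cultures of day 16. Cultures of different origin and exchanged labels cannot be told apart here, and each doxycycline direction given here rests on the labels.

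**Figure D1:**
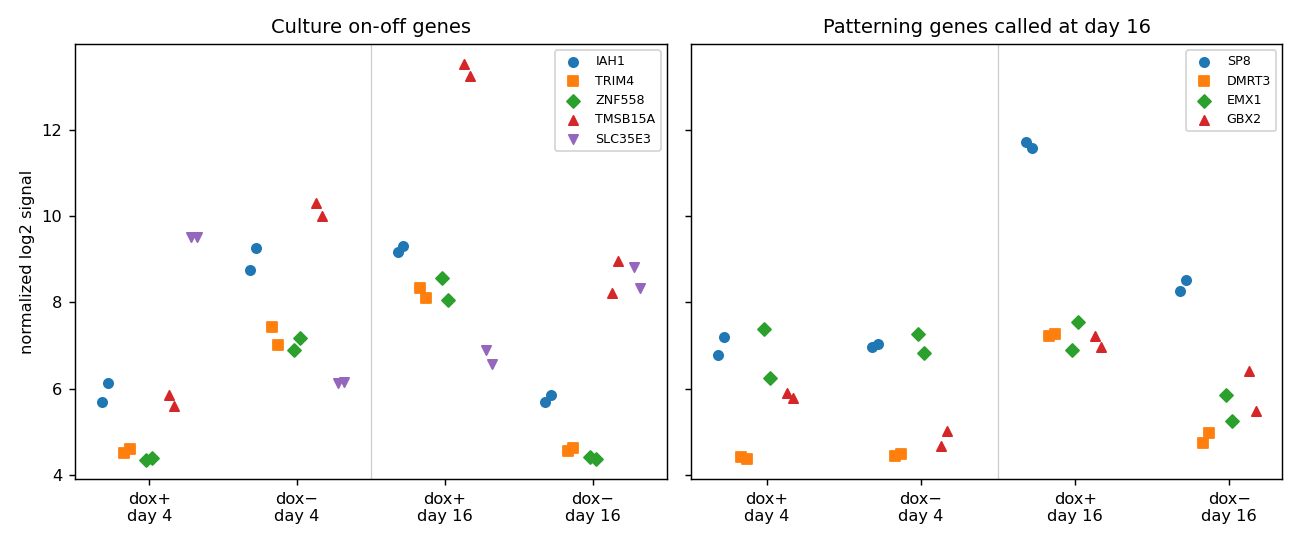
Normalized log2 signal (vertical axis) of 5 of these 9 genes, titled culture on-off genes (left), and of the 4 patterning genes called at day 16 (right) on every array of the doxycycline series, with dox-plus and dox-minus cultures of day 4 and then of day 16 along the horizontal axis and 1 point per array. IAH1, TRIM4, ZNF558 and TMSB15A are low in dox-plus and high in dox-minus cultures of day 4 and the other way round at day 16, SLC35E3 runs opposite, and SP8 and DMRT3 are high in dox-plus cultures of day 16 without a matching difference at day 4.

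At day 16 the rostral factor SP8, the cortical factors EMX1 and DMRT3 and the homeobox gene GBX2 had higher signals in the dox-plus cultures than in their dox-minus counterparts. No member was lower. These are 4 of 9 genes called higher by limma at an adjusted p under 0.05, against 6.08% of all 15650 genes, with 7.64% called lower and 13.7% in either direction. DMRT3 passed the detection filter only through dox-plus cells of day 16 and GBX2 only through the dox-plus groups, so these 2 of the 4 were tested because of groups in which they are high, and nothing is read from the count. The median log2 fold change of the 9 was 0.79, against 0.02 over all genes tested. That median is the HESX1 estimate, which was not called (limma adjusted p = 0.295). It ran from -0.12 to 1.70 as single arrays were left out, so nothing is read from the median either. In bulk RNA, more cells that express a gene and more RNA per cell cannot be told apart.

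SP8, a zinc finger factor of the rostral forebrain, read 11.72 and 11.57 in dox-plus cells of day 16, against 8.26 and 8.53 in dox-minus cells. Both dox-plus arrays lay far above both dox-minus arrays. The difference was 9.51-fold (log2 fold change 3.25 ± 0.20 SE, limma adjusted p = 8.05e-07). Before normalization the same probe gave 3316.2 and 2704.5 intensity units in dox-plus cells, against 356.4 and 414.9 in dox-minus cells. The standard error over the 13 to 35 beads behind each SP8 reading was 3.74% to 6.38% of the signal. A second SP8 probe, which starts at base 3368 and also covers all transcripts, gave a log2 fold change of 3.00 ± 0.28 SE (limma adjusted p = 2.61e-05 over 20719 probes). The third, specific to 1 transcript, was detected on 0 of 12 arrays, at 46.7 to 64.4 intensity units.

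**Figure D2:**
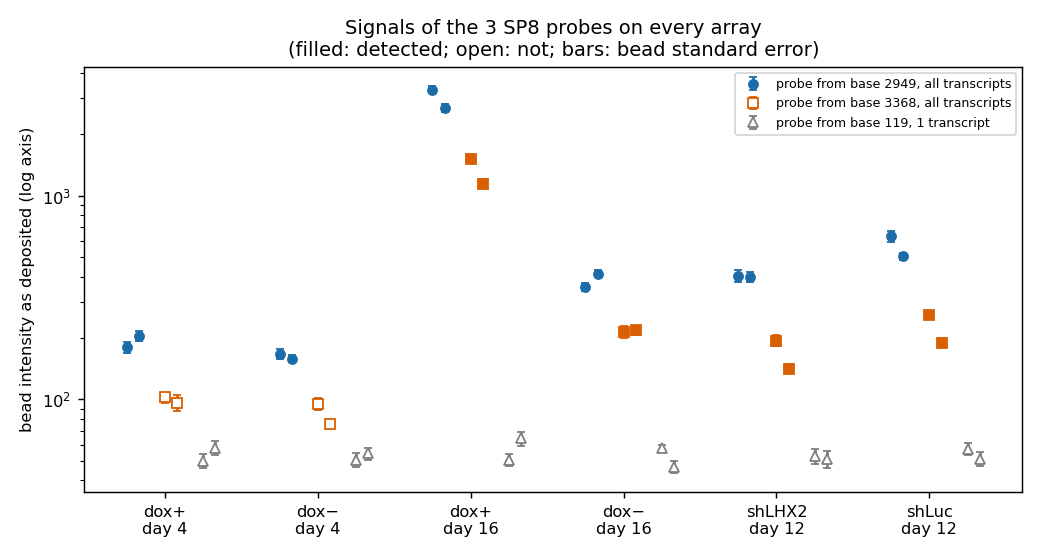
Intensity of the 3 SP8 probes as deposited (vertical axis, logarithmic) on every array, by group along the horizontal axis; filled points were detected, open points were not, and bars are bead standard errors. The probes for all transcripts stand highest in dox-plus cells of day 16, and the probe for 1 transcript stays between 46.7 and 64.4 on all 12 arrays.

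DMRT3, a doublesex-related factor of the medial cortex in the mouse, read 7.23 and 7.26 in dox-plus cells of day 16, against 4.74 and 4.98 in dox-minus cells. It was detected on both dox-plus arrays and on no array of any other group. The signal of dox-minus cells is therefore only a bound: set against the lowest detected signal of each array, the dox-plus cells had at least 3.22-fold more DMRT3 signal (limma adjusted p = 3.34e-06). The SP8 and DMRT3 calls held under every alternative in which the gene was tested.

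EMX1, a homeobox factor of the dorsal telencephalon, read 6.91 and 7.55 in dox-plus cells of day 16, against 5.87 and 5.26 in dox-minus cells, of which 1 of 2 was detected. The groups did not overlap, with a difference of 1.67 ± 0.36 SE on the log2 scale (limma adjusted p = 0.00938). The second EMX1 probe gave 1.40 ± 0.42 SE (limma adjusted p = 0.0473). The call was lost without dox-plus replicate 2 of day 16 (adjusted p = 0.0825).

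GBX2, known for the anterior hindbrain side of the midbrain-hindbrain boundary and also expressed in forebrain, read 7.23 and 6.96 in dox-plus cells of day 16, against 6.41 and 5.48 in dox-minus cells. The difference was 1.15 ± 0.28 SE on the log2 scale (limma adjusted p = 0.0168). This call was the least firm of the 4: it was lost without dox-minus replicate 2 of day 16 (log2 fold change 0.69, adjusted p = 0.0729), without dox-plus replicate 1 (adjusted p = 0.139), and when only these 2 groups were fitted (adjusted p = 0.0854).

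The other 5 members passed no test at day 16. EMX2, a homeobox factor of the caudal and medial cortex, read 8.55 and 8.47 in dox-plus cells, against 8.09 and 7.64 in dox-minus cells (0.65 ± 0.31 SE on the log2 scale, limma adjusted p = 0.197). The second EMX2 probe gave 0.75 ± 0.24 SE (limma adjusted p = 0.0572 over 20719 probes). FEZF2, which directs forebrain development and later the identity of deep-layer projection neurons, read 6.75 and 6.88 in dox-plus cells, against 6.40 and 5.88 in dox-minus cells (0.68 ± 0.23 SE, limma adjusted p = 0.0762). In both genes the 2 groups did not overlap, although the call was missed.

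NR2F1, a nuclear receptor of the caudal cortex, read 7.73 and 7.96 in dox-plus cells, against 8.96 and 8.10 in dox-minus cells, the only member with both dox-plus arrays below both dox-minus arrays (-0.68 ± 0.26 SE on the log2 scale, limma adjusted p = 0.0982). HESX1, a repressor of the anterior neural plate, read 10.16 and 9.63 in dox-plus cells, against 8.19 and 10.01 in dox-minus cells, and the groups overlapped. OTX1, a homeobox factor of forebrain and midbrain, read 7.49 and 7.86 in dox-plus cells, against 8.41 and 7.59 in dox-minus cells, again with overlap. The wide dox-minus pair decided several of these: without dox-minus replicate 2, HESX1 gave 1.70 (adjusted p = 0.00875) and NR2F1 gave -1.11 (adjusted p = 0.00762). Without dox-minus replicate 1, HESX1 gave -0.12 (adjusted p = 0.919), NR2F1 gave -0.25 (adjusted p = 0.629) and FEZF2 gave 0.94 (adjusted p = 0.0459). Both arrays of dox-plus cells lay above both of dox-minus cells for 6 of 9 members, against 27.2% of all genes, and wholly below for 1, against 26.6%. DMRT3 and GBX2, tested because of dox-plus groups, are among the 6, so nothing is read from this count.

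Markers of other cells differed between the same cultures. All 10 mesenchyme genes of a marker list were lower in dox-plus cells of day 16, with a summed linear signal of 6872 to 7323, against 35363 to 35401 in dox-minus cells. Of 5 endoderm markers 4 were lower in dox-plus cells, where all 5 (FOXA2, GATA4, GATA6, AFP and APOA1) were undetected. GATA4 and GATA6 passed the detection filter only through dox-minus cells of day 16, so nothing is read from that count. Of 7 neural crest markers 3 were lower. Neural progenitor markers summed to 55144 to 55538 in dox-plus cells, against 47737 to 52377 in dox-minus cells. Of 8 such markers 4 were higher and 1 lower. Their median log2 fold change was 0.78, near the 0.79 of the 9 members. Of all genes, 6.08% were called higher and 7.64% lower. The part of these differences in the members' values was not tested.

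At day 4, 1 day after the drug, no member was called (0 of 9 by limma, against 1.93% of all genes, with 1.34% higher and 0.594% lower), and 2 of 9 had an unadjusted p under 0.05, against 13.9% of all genes. Those were OTX1 and GBX2. OTX1 read 8.12 and 6.92 in dox-plus cells, against 6.71 and 5.81 in dox-minus cells (1.26 ± 0.41 SE on the log2 scale, limma adjusted p = 0.173). GBX2 read 5.89 and 5.78 in dox-plus cells, both detected, against 4.68 and 5.01 in dox-minus cells, neither detected, an excess of at least 1.12-fold (limma adjusted p = 0.105). In both genes both dox-plus arrays lay above both dox-minus arrays, as in 20.5% of all genes, and DMRT3 alone lay wholly below, as did 19.8% of all genes.

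The remaining 7 differed by 0.22 or less on the log2 scale at day 4. SP8 read 6.79 and 7.20 in dox-plus cells, against 6.97 and 7.04 in dox-minus cells, so the pairs overlapped. DMRT3, NR2F1 and FEZF2 were detected on none of the 4 arrays of day 4. GBX2 was called at day 4 when either dox-minus array of day 16 was left out of the shared fit (adjusted p = 0.0256 each).

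The change in the doxycycline effect between the days was tested directly, as the dox-plus minus dox-minus difference of day 16 minus that of day 4. It was called above 0 for 3 of 9 members and below 0 for none, against 3.17% of all genes called higher, 4.68% lower and 7.85% in either direction. The values were 3.26 ± 0.28 SE for SP8 (limma adjusted p = 2.32e-05) and 1.89 ± 0.51 SE for EMX1 (limma adjusted p = 0.0428). DMRT3 was called too (limma adjusted p = 8.15e-05), but it was detected in dox-plus cells of day 16 alone of these 4 groups, so its change of effect has no measured size. It also passed the detection filter only through that group, so nothing is read from the count of 3. EMX1 lost this call in 21 of 28 alternatives, with limma adjusted p up to 0.206. The second EMX1 probe gave 1.34 ± 0.59 SE (limma adjusted p = 0.207 over 20719 probes). For OTX1 the estimate was -1.59 ± 0.59 SE (limma adjusted p = 0.13). For GBX2, undetected in dox-minus cells of day 4, the fitted value was 0.17 ± 0.39 SE (limma adjusted p = 0.831). Its call at day 16 alone is therefore not a difference between the days.

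**Figure D3:**
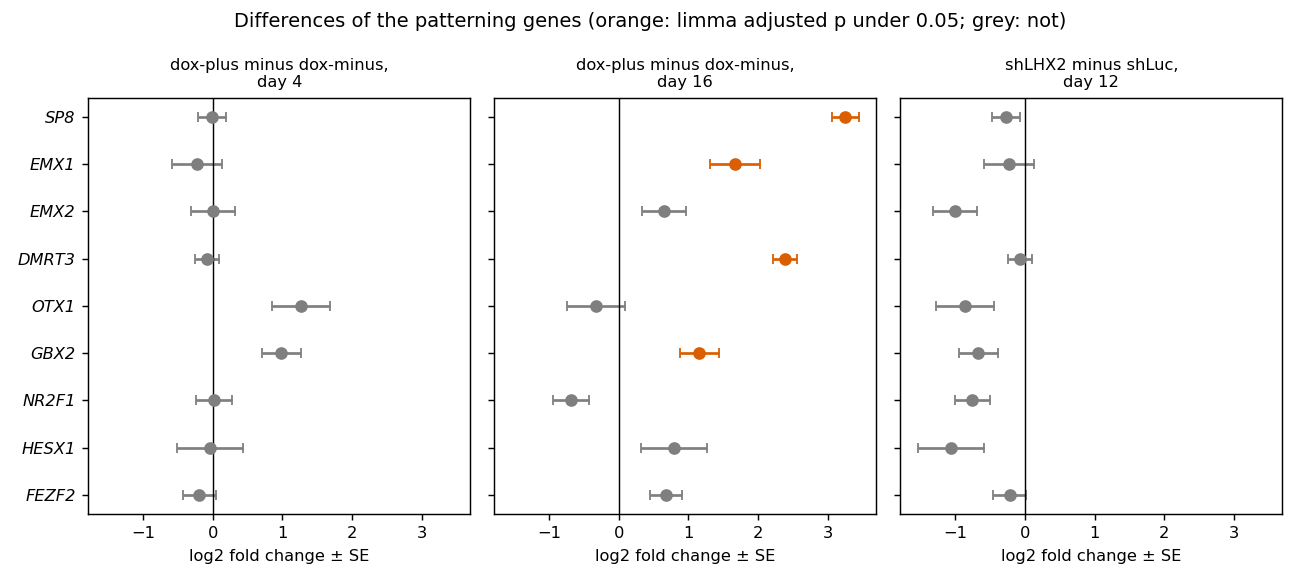
Log2 fold changes with standard errors (horizontal axes) of the 9 genes for dox-plus minus dox-minus cells at day 4 and at day 16 and for shLHX2 minus shLuc cells at day 12, with orange points called by limma and grey points not. SP8, EMX1, DMRT3 and GBX2 are orange at day 16 only, although GBX2 lies right of 0 at day 4 too. All 9 points of the knockdown lie left of 0 and are grey.

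After knockdown none of the 9 was called (0 of 9 by limma, against 0.543% of all genes, with 0.249% higher and 0.294% lower), while 4 of 9 had an unadjusted p under 0.05, against 10.2% of all genes. All 9 estimates lay below 0, between -1.06 and -0.07, where 49.3% of all genes did, and the median was -0.66, against 0.01 over all genes. With arrays scaled only to a common median, the median of all genes moved to -0.13, and 8 of 9 members lay below it; with the unnormalized series values it moved to -0.17, and 7 of 9 lay below it. DMRT3, GBX2 and FEZF2 were detected on none of the 4 arrays, so their estimates carry no level. The median of the 9 is the GBX2 estimate itself. Nothing is therefore read from that median or from the count of 9 below 0. GBX2 is among the 4 members with an unadjusted p under 0.05, as is NR2F1, detected on 1 of the 4 arrays. Neural progenitor markers moved alongside: 1 of 8 was called lower and 5 of 8 had an unadjusted p under 0.05, with a median of -0.50 and a summed linear signal of 16946 to 17202 in shLHX2 cells, against 24151 to 25939 in shLuc cells. Of 7 neuron markers limma called 0, 5 had an unadjusted p under 0.05, and the median was -0.55. The part of these markers in the members' values was not tested.

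HESX1 read 9.81 and 9.71 in shLHX2 cells, against 10.93 and 10.72 in shLuc cells (-1.06 ± 0.48 SE on the log2 scale, limma adjusted p = 0.48). When only the 2 knockdown groups were fitted, it was called (adjusted p = 0.0354). EMX2 read 5.18 and 6.02 in shLHX2 cells, 1 of 2 detected, against 6.84 and 6.37 in shLuc cells (-1.0 ± 0.31 SE, limma adjusted p = 0.242). In both genes the shLHX2 readings lay below both shLuc readings. The second EMX2 probe, undetected in both groups, gave a fitted value of -0.34 ± 0.24 SE (limma adjusted p = 0.721 over 20719 probes).

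OTX1 read 5.76 and 6.38 in shLHX2 cells, against 7.0 and 6.85 in shLuc cells (-0.86 ± 0.41 SE on the log2 scale, limma adjusted p = 0.523). NR2F1 read 4.90 and 4.75 in shLHX2 cells, neither detected, against 5.67 and 5.48 in shLuc cells, 1 of 2 detected. SP8, the gene with the widest doxycycline difference, read 8.68 and 8.61 in shLHX2 cells, against 9.01 and 8.82 in shLuc cells (-0.27 ± 0.20 SE, limma adjusted p = 0.711). Both shLHX2 arrays lay below both shLuc arrays for 6 of 9 members, against 22.6% of all genes, and wholly above for none, against 25.4%. The 6 include GBX2, undetected on all 4 arrays, and NR2F1, detected on 1 of the 4, so nothing is read from this count. EMX1 was detected on 1 of the 4 arrays of day 12.

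**Figure D4:**
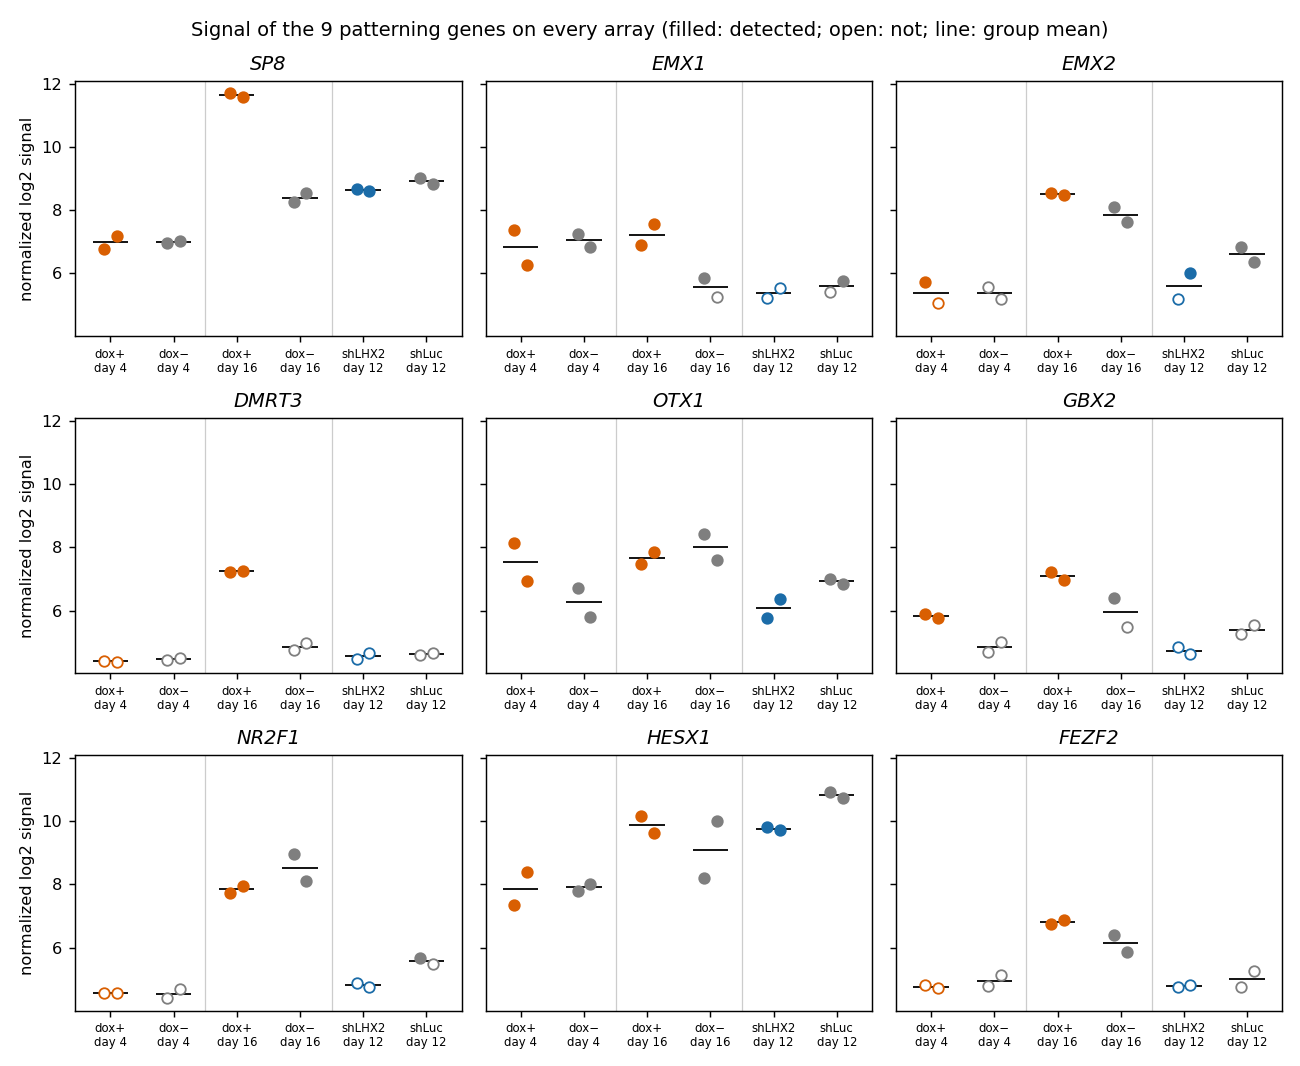
Normalized log2 signal (vertical axes) of each of the 9 genes on all 12 arrays, by group along the horizontal axes. SP8 stands highest in dox-plus cells of day 16 (11.72 and 11.57), DMRT3 is detected in that group alone, and EMX1 is low in dox-minus cells of day 16 and in both groups of day 12.

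Most members were higher at day 16 than at day 4. In dox-plus cells 7 of 9 were called higher and none lower, against 17.8% and 18.9% of all genes, 36.6% together. In dox-minus cells 6 of 9 were higher and EMX1 alone was lower, against 9.7% and 8.35% of all genes, 18% together. Both arrays of day 16 lay above both of day 4 for 7 members in dox-plus cells, against 32.9% of all genes, and wholly below for none, against 34%. In dox-minus cells 8 lay wholly above and 1 below, against 24.9% and 28.1%. DMRT3, NR2F1 and FEZF2 passed the detection filter only through groups of day 16, in which they are high. Nothing is therefore read from these counts. Markers of other cells changed over the same days, and their part in the members' values was not tested. Pluripotency markers fell for 5 of 7 in dox-plus cells and for 6 of 7 in dox-minus cells. Mesenchyme markers rose for 6 of 10 and fell for 2 in dox-plus cells (median 0.69), and rose for 9 and fell for 1 in dox-minus cells (median 3.68). Of 5 endoderm markers 3 fell in dox-plus cells, while 4 rose and 1 fell in dox-minus cells. Of 4 surface ectoderm markers 2 rose in dox-plus and 3 in dox-minus cells. GATA4 and GATA6 passed the detection filter only through dox-minus cells of day 16, and TP63 only through groups of day 16. Nothing is read from the counts of these 2 lists. NR2F1 was undetected at day 4 and rose by day 16 at least 4.62-fold in dox-plus cells (limma adjusted p = 2.2e-06) and at least 7.25-fold in dox-minus cells (limma adjusted p = 6.26e-07). EMX2 was higher at day 16 by 3.12 ± 0.31 SE on the log2 scale in dox-plus cells (limma adjusted p = 1.69e-05), with 1 of 2 arrays of day 4 detected. In dox-minus cells, where EMX2 was undetected at day 4, it rose by at least 4.56-fold (limma adjusted p = 0.000172). Both values are from the brighter EMX2 probe. The second EMX2 probe, undetected at day 4, gave smaller fitted rises. They were 1.55 ± 0.24 SE in dox-plus cells and 0.85 ± 0.24 SE in dox-minus cells (limma adjusted p = 0.000395 and 0.028 over 20719 probes). That probe was detected on 1 of 2 dox-minus arrays of day 16. NR2F1 and EMX2 are the genes of caudal cortex identity, and both were higher at day 16 than at day 4 with and without the drug.

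SP8 was higher at day 16 by 4.65 ± 0.20 SE on the log2 scale in dox-plus cells (limma adjusted p = 3.71e-08) and by 1.39 ± 0.20 SE in dox-minus cells (limma adjusted p = 0.000412). FEZF2, undetected at day 4, rose at least 2.27-fold in dox-plus cells (limma adjusted p = 4.23e-05) and at least 1.38-fold in dox-minus cells (limma adjusted p = 0.00388). DMRT3 rose at least 3.05-fold in dox-plus cells (limma adjusted p = 3.62e-07) and undetected at both days in dox-minus cells. EMX1 went the other way in dox-minus cells, by -1.48 ± 0.36 SE (limma adjusted p = 0.0135), and gave no call in dox-plus cells (limma adjusted p = 0.404).

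Several of these calls rested on single arrays. HESX1 in dox-plus cells (2.02 ± 0.48 SE on the log2 scale, limma adjusted p = 0.00633) was lost without dox-plus replicate 1 of day 4 (0.0631) or of day 16 (0.0579). In dox-minus cells OTX1 (1.74 ± 0.41 SE, limma adjusted p = 0.012) was lost without replicate 2 of day 4 (0.13) or replicate 1 of day 16 (0.078). GBX2, undetected at day 4 and on 1 of 2 arrays of day 16, was at least 1.21-fold higher (limma adjusted p = 0.0167), a call lost without replicate 1 of day 4 (0.127) or of day 16 (log2 fold change 0.63, adjusted p = 0.123), and EMX1 without replicate 1 of day 4 (0.11) or replicate 2 of day 16 (0.0732).

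Because TRIM4 and the genes like it paired the dox-minus cultures of day 16 with the dox-plus cultures of day 4, the days were also compared across the labels, a choice made after seeing the data. Dox-minus cells of day 16 against dox-plus cells of day 4 gave 4 members higher and 1 lower, against 23.1% of all genes called. OTX1 (0.48, adjusted p = 0.462) and GBX2 (0.11, adjusted p = 0.83) lost their calls there. Dox-plus cells of day 16 against dox-minus cells of day 4 gave 8 higher and 0 lower, against 32.6% of all genes called, and OTX1 gained a call (1.41, adjusted p = 0.021). Here too DMRT3, NR2F1 and FEZF2 were tested because of groups of day 16, so nothing is read from these counts.

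**Figure D5:**
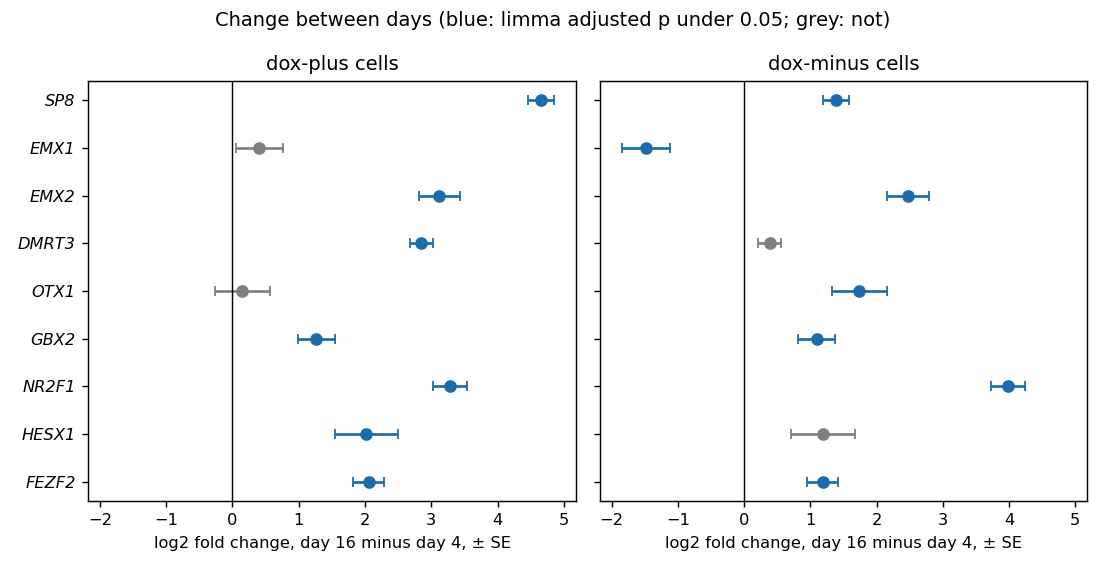
Log2 fold changes between day 16 and day 4 with standard errors (horizontal axes) of the 9 genes in dox-plus cells (left) and dox-minus cells (right), with blue points called by limma and grey points not. NR2F1 and EMX2 lie far right in both panels, SP8 lies furthest right in dox-plus cells at 4.65, and EMX1 lies left of 0 in dox-minus cells.

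The order of the 6 groups differed between members. Neighbouring groups were taken as apart where their means differed at an unadjusted p under 0.05 in the fit, a looser rule than the calls. For SP8 the dox-plus cells of day 16 came first, then shLuc, shLHX2 and dox-minus cells of day 16, whose neighbours did not differ beyond the spread, and last both groups of day 4. NR2F1 ran from dox-minus to dox-plus cells of day 16, then shLuc, then shLHX2 and the day 4 groups together. Of these steps, dox-minus over dox-plus (limma adjusted p = 0.0982) and shLuc over shLHX2 (limma adjusted p = 0.297) were not called. HESX1 was highest in shLuc cells, with no neighbour among shLuc, shLHX2 and both day 16 groups separated, and lowest at day 4. For OTX1 no neighbouring groups differed beyond the spread. Groups further apart in the order could still differ. For OTX1 the dox-minus cells of day 16 and day 4 were called apart (limma adjusted p = 0.012). For HESX1 the shLuc and shLHX2 cells had an unadjusted limma p of 0.0461.

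Genes with the most similar profiles were ranked by the mean absolute difference of centred log2 signals over the 12 arrays, for the 7 members whose group means spanned at least 2 on the log2 scale. Nearest to SP8 were DLL1 (0.37), RTN1 (0.39) and SMOC1 (0.40), where the median gene stood at 1.21. Nearest to DMRT3 were LOC100133895 (0.11), GAD2 (0.13) and VSX1 (0.15), against a median of 0.79. Among the nearest to NR2F1 were TGFBI (0.30) and GRP (0.35), against a median of 1.49. For the others the nearest genes were TBC1D9, RSPO3 and C5 for EMX2, BST2, LOC730525 and REM2 for GBX2, SNORD31, STOM and EYA1 for HESX1, and NRG1, YPEL1 and NECAB2 for FEZF2. The arrays share their groups and their detection floor, so these distances are descriptions.

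Other genes of the same pathways were read from lists chosen for their known roles, with earlier results of these data known. Of 14 tested telencephalon regulators, 5 were higher and 2 lower in dox-plus cells of day 16, against 6.08% and 7.64% of all genes. DMRTA2, 1 of the 5, passed the detection filter only through that group, so nothing is read from this count. The median log2 fold change of the 14 was 0.65, against 0.02 over all genes. SIX3, of the anterior neural plate, was higher by 1.26 ± 0.36 SE on the log2 scale (limma adjusted p = 0.0383). EOMES, of intermediate cortical progenitors and also of early endoderm, was at least 1.61-fold lower (limma adjusted p = 0.00338). After knockdown 3 of the 14 were lower, against 0.294% of all genes. They were LHX2, which is the target itself, PAX6 (-1.57 ± 0.22 SE, limma adjusted p = 0.0079) and EOMES (-2.05 ± 0.27 SE, limma adjusted p = 0.00542). EOMES was detected on 1 of 2 shLHX2 arrays. At day 4 limma called 0 of 14, against 1.93% of all genes, and 2 had an unadjusted p under 0.05, against 13.9%.

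Among 13 tested rostral and dorsal signals, 2 were higher and 4 lower in dox-plus cells of day 16, against 6.08% and 7.64% of all genes. FGF8, the rostral signal, was higher by 3.48 ± 0.25 SE on the log2 scale (limma adjusted p = 3.05e-06), while BMP4, a dorsal signal, was lower (-2.11 ± 0.20 SE, limma adjusted p = 3.33e-05). After knockdown 6 of the 13 were lower and none higher, against 0.294% and 0.249% of all genes. FGF8 was at least 1.61-fold lower there (limma adjusted p = 0.0119), RSPO3, which strengthens WNT signalling, at least 1.37-fold lower (limma adjusted p = 0.00837), and the WNT inhibitor DKK1 was lower (-1.78 ± 0.24 SE, limma adjusted p = 0.00542).

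Of 17 midbrain, hindbrain and caudal regulators only 8 passed the detection filter. At day 16 4 were lower and 1 higher in dox-plus cells, against 7.64% and 6.08% of all genes. HOXB3 and HOXB4 passed the filter only through dox-minus cells of day 16, so nothing is read from this count. HOXB2, a hindbrain gene, was lower (-2.83 ± 0.23 SE on the log2 scale, limma adjusted p = 1.04e-05) and HOXB3 at least 1.94-fold lower (limma adjusted p = 0.000183). After knockdown HOXB2 was higher (1.51 ± 0.23 SE, limma adjusted p = 0.0137). Of 4 tested ventral telencephalon regulators, OLIG2 and DLX5 changed with doxycycline in opposite directions on the 2 days. OLIG2 was at least 3.30-fold lower at day 4 and at least 2.84-fold higher at day 16 (limma adjusted p = 0.000264 and 0.000119), and like TRIM4, ZNF558 and H19 it was undetected in dox-plus cells of day 4 and dox-minus cells of day 16.

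Paralogues of the 9 genes were read the same way. Of 9 tested, 3 were higher in dox-plus cells of day 16 and none lower, against 6.08% and 7.64% of all genes. DMRT2 and DMRTA2 passed the detection filter only through that group, so nothing is read from this count. DMRT2 was at least 1.13-fold higher (limma adjusted p = 0.00132), DMRTA2, detected on 1 of 2 dox-minus arrays, higher by 0.90 ± 0.25 SE on the log2 scale (limma adjusted p = 0.0308) and OTX2 by 0.71 ± 0.20 SE (limma adjusted p = 0.0353). DMRTA2 and OTX2 are also among the 5 telencephalon regulators above, so the counts of these lists are not separate. After knockdown SP5, a relative of SP8 that responds to WNT signals, was at least 2.89-fold lower (limma adjusted p = 0.00542). NR2F2, the relative of NR2F1, was undetected at day 4 and higher at day 16, by at least 11.9-fold in dox-plus cells (limma adjusted p = 4.42e-07) and at least 9.69-fold in dox-minus cells (limma adjusted p = 6.96e-07).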

How the data were processed

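Bead intensities per probe, with detection p-values and bead counts, were used as deposited by the authors, in the raw signal columns named in the file headers. The scanner software and genome build are not given in the sources used here. In R 4.3.3 with limma 3.58.1, intensities were background-corrected by normexp with an offset of 16, quantile-normalized and put on a log2 scale. Of 47227 probes, 21526 were kept, with detection p under 0.01 on both arrays of a group, and the brightest probe stood for each of 15650 genes. Of all probes, 35670 were named through RefSeq and 8287 kept the file's name. One model with 6 group means was fitted, with Benjamini-Hochberg adjustment over all genes and a threshold of 0.05, and tested on simulated data. "At least" folds set the brighter group against the higher of each dim array's own value and its lowest detected signal. The 2 arrays per group limit the precision. Other settings, arrays left out in turn and a fit with the replicate number as a block were tried. Deviations of same-numbered arrays from their group means correlated between -0.58 and 0.64 over the 15 pairs of groups, with no common sign, and no label ties the numbers to a shared batch, so they were not taken as pairs. All members were named in each comparison, and of each list at most 4 called genes by size; members, lists and tests were chosen with earlier results of these data known. Some genes that these rules would name are not reported here.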

Additional observations from a re-analysis of the deposited data

Results flagged for a closer look

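The change in the doxycycline effect between the days was called for SP8, EMX1 and DMRT3, by the test of the difference itself. The log2 difference was 3.26 for SP8 (limma adjusted p = 2.32e-05) and 1.89 for EMX1 (limma adjusted p = 0.0428), each with the larger dox-plus minus dox-minus difference at day 16. EMX1 lost this call in 21 of 28 alternatives, and its second probe gave 1.34 ± 0.59 SE (limma adjusted p = 0.207 over 20719 probes). DMRT3 had a fitted value of 2.46 (limma adjusted p = 8.15e-05), which is no measured size, since DMRT3 was undetected in the other 3 groups of that test. The 9 genes that changed in opposite directions on the 2 days also differed between the days, 7 upward and 2 downward, and the part of that pattern in these values was not tested.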

How the results depend on the processing

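The 21 called member results gave the same call in 559 of 599 alternatives, lost it in 40 and reversed in 0, and 20 results without a call gained one in 14 of 562 and reversed in 3. Another 13 of the 54 member results, all without a call and smaller than their standard error, were left out of this tally. Their reversals are therefore not counted. Leaving out 1 array gave 0 to 1 called members at day 4, 3 to 5 at day 16, 5 to 7 and 6 to 7 for the days in dox-minus and dox-plus cells, and 2 to 5 for the change of the doxycycline effect. The 5 came without dox-minus replicate 2 of day 16. The knockdown gave 1 call when only its groups were fitted, and the days in dox-minus cells gave 4 at an adjusted p under 0.01. Reversals came from single arrays in results without a call: EMX1 between days in dox-plus cells ranged from -0.16 to 0.97, HESX1 at day 16 from -0.12 to 1.70, and its change of effect from -0.078 to 1.74. The replicate block gave 0, 4, 0, 7 and 7 calls, and 2 in place of 3 for the change of effect, where EMX1 was lost (adjusted p = 0.0582). With the mean of its probes EMX2 was called at day 16 (0.70, adjusted p = 0.047). Over all genes, calls at day 4 ran from 28 to 592 around 302, at day 16 from 908 to 3221 around 2148, and after knockdown from 10 to 418 around 85. For the days they ran from 1517 to 3765 around 2824 in dox-minus cells and from 3258 to 7036 around 5731 in dox-plus cells, and for the change of effect from 477 to 2136 around 1229. The share of calls that were higher at day 4 was 69.2%, against 87.1% with median scaling, which moved the median of all genes by 0.15. The unnormalized series values gave 93.8% there, and 16.4% in place of 45.9% after knockdown (28.6% with median scaling). For the days, median scaling and series values gave 38.9% and 32.2% in place of 48.5% in dox-plus cells, where the median of all genes moved to -0.12 and -0.14, and 62% and 70.4% in place of 53.8% in dox-minus cells. The cause of each shift was not tested. Signals near background limit DMRT3, GBX2, NR2F1, FEZF2 and EMX2 at day 4.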
